A study of Mus musculus with 6 samples.

Results

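Neutrophils, monocytes, macrophages and microglia express genes tied to inflammation, not all of them the same. Of such genes, 9 were followed in the peripheral ventrotemporal (VT) retina of mice after optic nerve crush (ONC): *S100a8*, *S100a9*, *Il1b*, *Chil3*, *Acod1*, *Nos2*, *Arg1*, *Ptafr* and *Slfn4*. They were chosen by name from the genes of the table analysed here, so that their presence in it is no result. Of the genes of the table, 397 had their higher mean in *Slc6a4*-/- mice and 304 had it in WT mice. The bulk RNA-seq compared WT mice, given as C57BL/6 in the labels and as C57BL/6J in the study's methods, with *Slc6a4*-/- mice, labelled C57BL/6 and with no background named in the methods, which carry no functional gene for the serotonin transporter SERT. All mice were at postnatal day 56, all had the left optic nerve crushed, and the injured retinae were taken 24 hours later, so that no uninjured retina was compared. There were 3 samples per genotype, each a pool of VT retinae from 3 mice, and the WT mice and the *Slc6a4*-/- mice came from separate lines, so that genotype and line cannot be told apart. Mice of both sexes were used, and how the sexes fell into the pools is not given in the sources used here.

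The table holds only genes that the authors selected on a p-value for this same contrast, and the 9 genes were named with their values known. The values below are therefore a description, and no test between the genotypes is given. In bulk tissue, fewer cells of a type and less RNA per cell cannot be told apart. The estimated depth was 75.3 to 94.0 M reads per sample, and a scaled count is a read count brought to the mean of these 6 totals. Reads on *Slc6a4* followed the labels, with 1516, 1397 and 1548 reads in the WT samples against 0, 0 and 3 in *Slc6a4*-/- samples 1 to 3. Retinal marker genes were abundant in every sample, such as *Nefl*, the neurofilament light chain of retinal ganglion cells, with 9017 to 12972 scaled counts. The rod and Müller glia markers looked for were not in the table.

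The resident myeloid cells of the retina are the microglia. Neutrophils and monocytes can enter from the blood after injury, and activated cells secrete cytokines, antimicrobial proteins and reactive molecules. *S100a8* and *S100a9* encode the subunits of calprotectin, a calcium- and zinc-binding protein abundant in neutrophils. *Il1b* encodes the cytokine interleukin-1β, and *Ptafr* encodes the receptor for platelet-activating factor. *Acod1* encodes the enzyme that makes itaconate, *Nos2* the inducible nitric oxide synthase and *Arg1* arginase, which uses the same amino acid as *Nos2*. *Chil3* encodes a secreted chitinase-like lectin of macrophages and neutrophils, and *Slfn4* is an interferon-inducible gene of the Schlafen family found in myeloid cells.

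On GRCm38 in the GENCODE M21 annotation, *S100a8* (ENSMUSG00000056054) lies on the plus strand of chromosome 3 from 90668978 to 90670035, and *S100a9* (ENSMUSG00000056071) lies 22.6 kb away on the minus strand, from 90692632 to 90695721. *Chil3* (ENSMUSG00000040809) is on the minus strand of the same chromosome, from 106147554 to 106167564. *Il1b* (ENSMUSG00000027398) is on the minus strand of chromosome 2 from 129364570 to 129371139. It overlaps the antisense gene *Il1bos*, and since the strand setting of the counting was not given in the sources used here, reads of *Il1bos* may be among its counts. *Acod1* (ENSMUSG00000022126) spans 103046977 to 103056573 on the plus strand of chromosome 14, and *Ptafr* (ENSMUSG00000056529) spans 132564067 to 132582683 on the plus strand of chromosome 4. *Nos2* (ENSMUSG00000020826, 78920787 to 78960254) and *Slfn4* (ENSMUSG00000000204, 83175186 to 83190216) are both on the plus strand of chromosome 11. *Slc6a4*, the gene inactivated in the mutant line, is on chromosome 11 as well. *Arg1* (ENSMUSG00000019987) is on the minus strand of chromosome 10 from 24915221 to 24927484. Of the 75-base words in the longest *Chil3* transcript, 14.2% also occur in transcripts of other genes, mostly its paralog *Chil4*. For *Slfn4* this share was 3.24% and for *Ptafr* 0.421%, and it was 0 for the other 6, so that only *Chil3* could share an appreciable part of its reads with a near-identical copy.

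The sequences around the transcription starts are shown for the 7 genes found in the RefSeq promoter table of GRCm38.p6, which were all but *Nos2* and *Arg1*. Each stretch runs 5′ to 3′ on the gene's strand from 60 bases before the RefSeq start to 20 bases from it onward. The capitals mark the letters TATAAA, as in a TATA box, on either strand and at any distance from the start. For *S100a8* and *Acod1* the RefSeq start lies downstream of the first base in the GENCODE annotation.
Il1b, chr2:129371120-129371199, minus strand: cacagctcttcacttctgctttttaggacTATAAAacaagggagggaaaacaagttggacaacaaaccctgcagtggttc
S100a8, chr3:90669011-90669090, plus strand: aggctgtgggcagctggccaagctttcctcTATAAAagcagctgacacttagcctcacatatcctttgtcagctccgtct
S100a9, chr3:90695702-90695781, minus strand: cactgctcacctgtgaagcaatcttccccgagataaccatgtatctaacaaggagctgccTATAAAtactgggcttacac
Chil3, chr3:106167545-106167624, minus strand: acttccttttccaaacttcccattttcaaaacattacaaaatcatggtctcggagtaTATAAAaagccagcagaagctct
Slfn4, chr11:83175126-83175205, plus strand: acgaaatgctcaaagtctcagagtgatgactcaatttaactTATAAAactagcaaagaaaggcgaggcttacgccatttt
Acod1, chr14:103046952-103047031, plus strand: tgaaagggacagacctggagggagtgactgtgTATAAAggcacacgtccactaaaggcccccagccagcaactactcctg
Ptafr, chr4:132564007-132564086, plus strand: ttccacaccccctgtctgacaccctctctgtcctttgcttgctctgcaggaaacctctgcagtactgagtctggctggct

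The letters TATAAA occurred in 6 of these 7 promoters in the window from 250 bases before to 50 bases after the start, in each case on the gene's strand, and in 13.6% of all 32851 promoters of the table on either strand. In *Il1b*, *S100a8* and *Acod1* the match began 31, 30 and 28 bases before the start, where a TATA box is usually found. A match on the gene's strand that began 40 to 20 bases before the start was held by those 3 of 7 promoters and by 1.99% of all promoters, a window that was set after the matches had been seen. In *Slfn4* the match began 19 bases before the start, in *Chil3* 3 bases before it and in *S100a9* at the RefSeq start itself. Motifs of inflammatory factors were searched on both strands of the same windows. Each of them occurred in 1 of the 7 promoters. The NF-kB type motif GGNNTTNCC was in *Acod1* (16.0% of all promoters), the interferon response element type GAAANNGAA in *Chil3* (8.56%), the C/EBP type TTGCNNAA in *S100a9* (10.8%), the AP-1 type TGANTCA in *Slfn4* (7.81%), the PU.1 type GAGGAAGT in *S100a8* (3.20%) and the STAT type TTCNNNGAA in *Chil3* (8.30%). None of the matches overlapped another. These matches are descriptions of letters and say nothing about bound factors.

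Few reads lay on these genes. The counts ran from 2 to 39 reads per sample in WT and reached 417 in *Slc6a4*-/-, and in 5 of the 9 genes the WT mean was below 10 reads. The mean count over all 6 samples was below 50 reads for 8 of the 9 genes and for 127 genes of the table. Together the 9 genes took 1.49, 1.32 and 1.69 reads per M reads of the library in WT samples 1 to 3. They took 9.55, 3.26 and 2.99 reads per M in *Slc6a4*-/- samples 1 to 3. *Slc6a4*-/- sample 1 thus stood apart from both other *Slc6a4*-/- pools, and each ratio below is given with and without it.

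**Figure D1:**
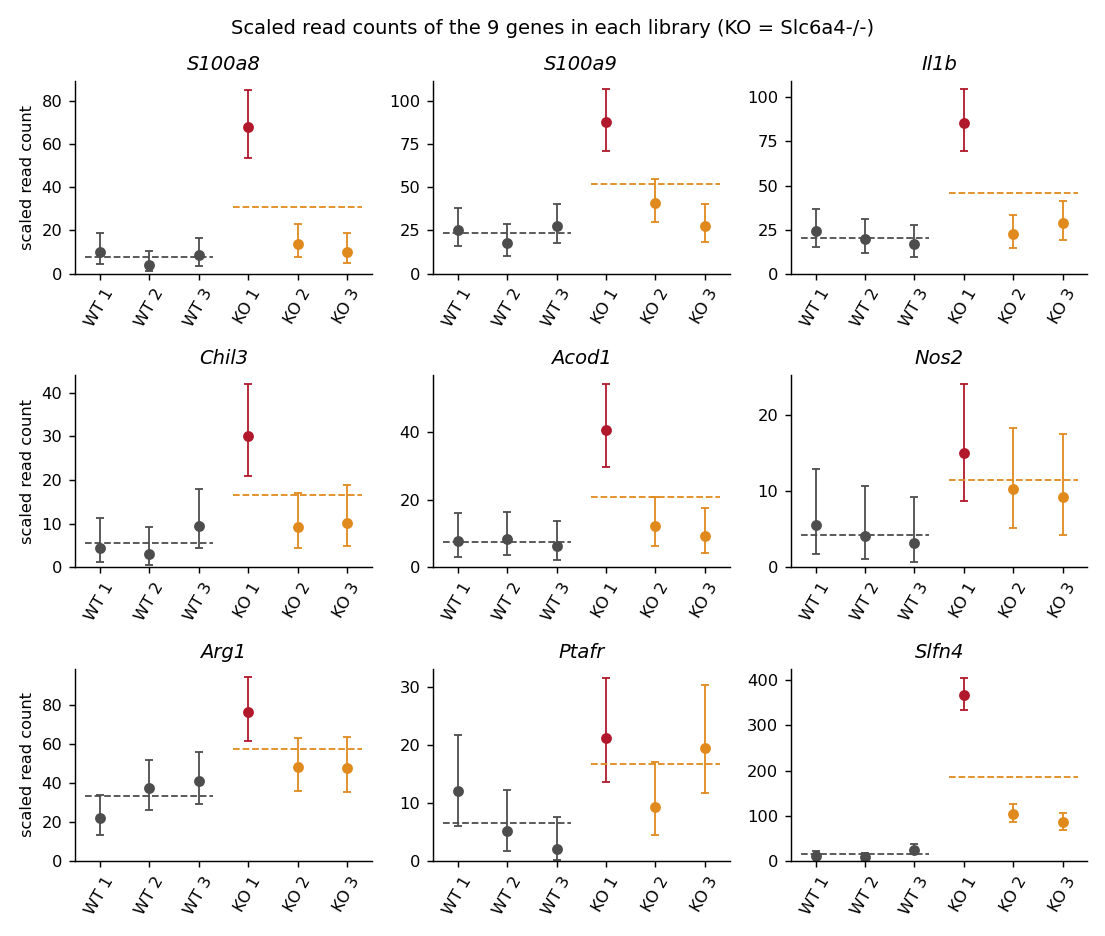
Scaled read counts of the 9 genes (linear axes from 0) in WT (grey) and *Slc6a4*-/- (KO) samples (sample 1 red, samples 2 and 3 orange), with exact 95% Poisson intervals of the counts as bars and group means as dashed lines. *Slc6a4*-/- sample 1 is the highest of the 6 samples in each of the 9 panels, and its interval lies above those of samples 2 and 3 for 6 genes.

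The calprotectin subunit *S100a8* had 9, 4 and 8 reads in WT samples 1 to 3, against 77, 15 and 10 reads in *Slc6a4*-/- samples 1 to 3. Scaled to the mean depth, these were 9.93, 4.17 and 8.43 against 68.0, 13.9 and 10.2. The groups did not overlap, but the lowest *Slc6a4*-/- value was only 1.03 times the highest WT value, and sample 1 held 73.8% of the *Slc6a4*-/- total. The group means were 7.51 ± 2.98 and 30.7 ± 32.4 (SD, n = 3 each), a ratio of 4.09, or 1.61 without *Slc6a4*-/- sample 1.

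Its partner *S100a9* had 23, 17 and 26 reads in WT and 99, 44 and 27 reads in *Slc6a4*-/- VT retina, which are scaled counts of 25.4, 17.7 and 27.4 against 87.5, 40.9 and 27.6. *Slc6a4*-/- sample 3 was level with WT sample 3, at 1.01 times its value, and sample 1 was again the highest. The means of 23.5 ± 5.09 and 52.0 ± 31.4 (SD, n = 3 each) differed by a ratio of 2.21, or 1.46 without *Slc6a4*-/- sample 1. Of the reads on the calprotectin pair, *S100a8* took 24.1% in the 3 WT samples together (21 of 87 reads, exact Clopper-Pearson 95% interval 15.6% to 34.5%) and 26.0% in *Slc6a4*-/- samples 2 and 3 (17.6% to 36.0%). In *Slc6a4*-/- sample 1 it took 43.8% (77 of 176 reads, 36.3% to 51.4%). The subunits were nearer to equal in read number in that sample than in the summed WT samples or the summed other *Slc6a4*-/- samples. Its interval narrowly missed that of the summed other *Slc6a4*-/- samples and did not meet that of the summed WT samples. It met the wider intervals of single samples such as WT sample 1 (13.7% to 46.7%). These intervals cover counting error only and not the spread between pools, so nothing is read from the gaps.

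The cytokine gene *Il1b* had 22, 19 and 16 reads in WT and 97, 24 and 28 reads in *Slc6a4*-/- VT retina. Once scaled, these were 24.3, 19.8 and 16.9 against 85.7, 22.3 and 28.7. The groups overlapped at WT sample 1 and *Slc6a4*-/- sample 2, and samples other than *Slc6a4*-/- sample 1 all lay between 16.9 and 28.7. The means were 20.3 ± 3.73 and 45.6 ± 34.9 (SD, n = 3 each), a ratio of 2.24. Without *Slc6a4*-/- sample 1 the ratio was 1.25, the smallest of the 9.

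*Acod1*, the itaconate enzyme, had 7, 8 and 6 reads in WT and 46, 13 and 9 reads in *Slc6a4*-/- VT retina. The scaled counts were 7.72, 8.35 and 6.32 against 40.6, 12.1 and 9.21, without overlap. The WT samples were close to each other, with a mean of 7.46 ± 1.04 (SD, n = 3), while the *Slc6a4*-/- mean of 20.6 ± 17.4 (SD, n = 3) rested on sample 1. The ratio of 2.77 became 1.43 without that sample.

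The 2 arginine-using enzymes had smaller differences between *Slc6a4*-/- samples. *Nos2* had 5, 4 and 3 reads in WT and 17, 11 and 9 reads in *Slc6a4*-/- VT retina, or 5.52, 4.17 and 3.16 against 15.0, 10.2 and 9.21 scaled counts. The groups did not overlap, and the lowest *Slc6a4*-/- value was 1.67 times the highest WT value. The means were 4.28 ± 1.18 and 11.5 ± 3.11 (SD, n = 3 each), with a ratio of 2.68, or 2.27 without *Slc6a4*-/- sample 1. Summed over the 6 samples these were the fewest reads of the 9 genes, and the 95% counting intervals of all 3 *Slc6a4*-/- samples met those of WT samples.

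*Arg1* had 20, 36 and 39 reads in WT and 87, 52 and 47 reads in *Slc6a4*-/- VT retina, with scaled counts of 22.1, 37.6 and 41.1 against 76.9, 48.3 and 48.1. The groups did not overlap, by a factor of 1.17 between the nearest samples. *Arg1* had the smallest ratio of the 9 genes with all samples, 1.72, from means of 33.6 ± 10.1 and 57.8 ± 16.6 (SD, n = 3 each), and this was 1.44 without *Slc6a4*-/- sample 1. Of the reads on *Nos2* and *Arg1* together, *Nos2* took 11.2% in WT (exact Clopper-Pearson 95% interval 5.93% to 18.8%) and 16.6% in *Slc6a4*-/- (11.96% to 22.1%), shares that overlap within counting error.

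The receptor gene *Ptafr* had 11, 5 and 2 reads in WT and 24, 10 and 19 reads in *Slc6a4*-/- VT retina, or 12.1, 5.22 and 2.11 against 21.2, 9.29 and 19.4 scaled counts. WT sample 1 exceeded *Slc6a4*-/- sample 2, and *Slc6a4*-/- samples 1 and 3 were within 2 scaled counts of each other. The means of 6.49 ± 5.13 and 16.6 ± 6.43 (SD, n = 3 each) gave a ratio of 2.57, or 2.21 without *Slc6a4*-/- sample 1. The log2 ratio of 1.36 moved with the WT pools as well, to 2.18 without WT sample 1 and to 0.94 without WT sample 3.

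*Chil3*, the chitinase-like lectin, had 4, 3 and 9 reads in WT and 34, 10 and 10 reads in *Slc6a4*-/- VT retina. The scaled counts were 4.41, 3.13 and 9.48 against 30.0, 9.29 and 10.2, and WT sample 3 lay between *Slc6a4*-/- samples 2 and 3. The means were 5.67 ± 3.36 and 16.5 ± 11.7 (SD, n = 3 each), with a ratio of 2.91, or 1.72 without *Slc6a4*-/- sample 1. Its log2 ratio of 1.54 was 2.13 without WT sample 3.

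*Slfn4* had the largest ratio of the 9 genes. It had 11, 9 and 24 reads in WT and 417, 113 and 84 reads in *Slc6a4*-/- VT retina, or 12.1, 9.39 and 25.3 against 368.5, 104.9 and 86.0 scaled counts. Each *Slc6a4*-/- sample lay above every WT sample, by a factor of 3.40 between the nearest. *Slfn4* was the only one of the 9 whose counting intervals in *Slc6a4*-/- samples 2 and 3 cleared those of all WT samples. The means were 15.6 ± 8.49 and 186.5 ± 157.9 (SD, n = 3 each), a ratio of 11.95, or 6.12 without *Slc6a4*-/- sample 1.

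Each of the 9 genes had its higher mean in the *Slc6a4*-/- samples. The median log2 ratio of the 9 was 1.42, beside 0.31 over all genes of the table, and without *Slc6a4*-/- sample 1 these medians were 0.69 and 0.35. In 6 of the 9 genes the *Slc6a4*-/- values all lay above the WT values, and 34.8% of all genes in the table did so, or 58.3% in either direction. A ratio of at least 2 was reached by 8 of the 9 genes and by 13% of the table, and without *Slc6a4*-/- sample 1 by 3 of the 9 (*Nos2*, *Ptafr* and *Slfn4*), beside 91 genes of the table with that sample and 80 without it. Since the contrast chose the genes, nothing is read from these shares. The absence of overlap rested on small gaps. With scaling factors computed over the table by the trimmed mean of M values (TMM) the groups did not overlap in 3 genes (*Acod1*, *Nos2* and *Slfn4*), and with the median of ratios in 3 (*S100a8*, *Nos2* and *Slfn4*). *Nos2* and *Slfn4* were without overlap under each scaling tried and in each fit that left out 1 sample. Both lie on chromosome 11, as *Slc6a4* does. Whether DNA linked to the inactivated *Slc6a4* gene had a part in their levels was not tested.

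**Figure D2:**
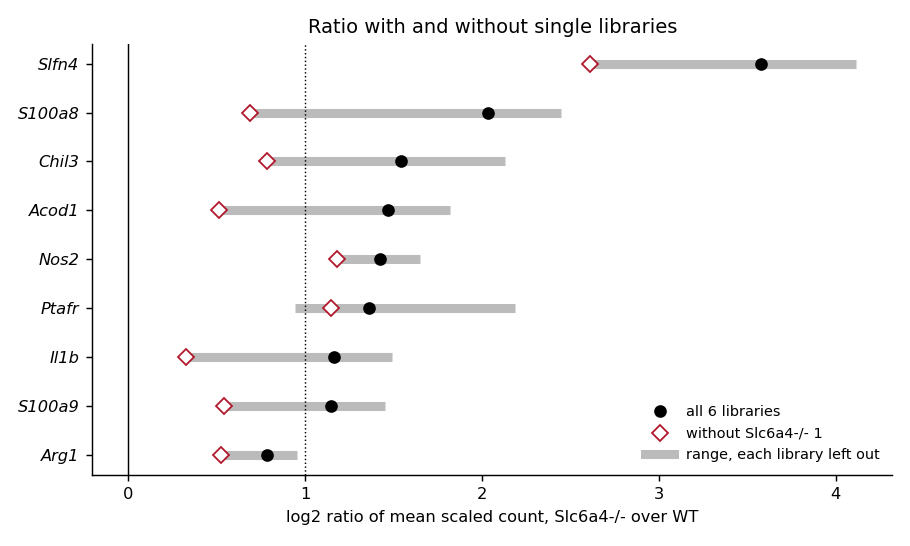
Log2 ratio of the mean scaled count in *Slc6a4*-/- over WT for each gene, with all 6 samples (black), without *Slc6a4*-/- sample 1 (red diamonds) and over all fits that left out 1 sample (grey bars). The dotted line marks a ratio of 2. All values lie above 0, and the diamonds of *Il1b*, *Acod1*, *Arg1*, *S100a9*, *S100a8* and *Chil3* lie below the dotted line.

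The spread between pools was compared with the spread that counting reads alone would give. Among WT samples the SD was 0.37 times (*Acod1*) to 2.08 times (*Slfn4*) the counting SD. Among *Slc6a4*-/- samples it was 11.7 times the counting SD for *Slfn4*, 5.88 times for *S100a8*, 5.25 times for *Il1b*, 4.43 times for *S100a9*, 3.87 times for *Acod1* and 2.93 times for *Chil3*. It was 2.23 times for *Arg1*, 1.62 times for *Ptafr* and 0.94 times for *Nos2*. Pools of different mice can differ by more than counting error, and at the few reads of *Ptafr* and *Nos2* counting error is itself large, so that these values do not rank the genes by how much the pools differed. In the first 6 genes the interval of *Slc6a4*-/- sample 1 lay above the intervals of samples 2 and 3.

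*Slc6a4*-/- sample 1 was the highest of the 6 samples for 9 of the 9 genes and for 126 genes of the table. These were 18.0% of all genes and 31.7% of the 397 genes with their higher mean in *Slc6a4*-/-, as all 9 had. *Slc6a4*-/- sample 2 was the highest for 221 genes of the table. The log2 ratio of sample 1 to the mean of samples 2 and 3, with 1 added to the scaled counts, was 2.40 for *S100a8*, 1.94 for *Slfn4*, 1.84 for *Acod1*, 1.71 for *Il1b*, 1.53 for *Chil3* and 1.33 for *S100a9*. It was 0.66 for *Arg1*, 0.58 for *Nos2* and 0.53 for *Ptafr*. The median over the whole table was -0.12. Only 10 genes of the table were at least 2-fold higher in sample 1 by this measure. Among them were 6 of the 9 genes described here and the gland secretion genes *Bpifb9a*, *Obp1b* and *Obp2a*, the last 3 with 0 to 27.4 scaled counts in *Slc6a4*-/-. These gland genes were named after their values were seen.

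**Figure D3:**
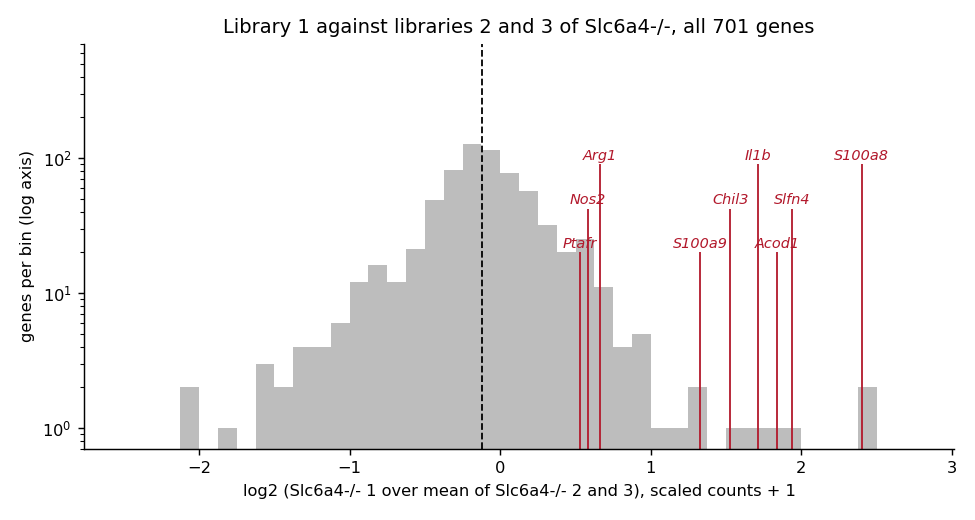
Number of genes (log axis) by the log2 ratio of *Slc6a4*-/- sample 1 to the mean of samples 2 and 3, for all genes of the table, with the 9 genes marked in red and the median of the table as a dashed line at -0.12. *Arg1*, *Nos2* and *Ptafr* lie on the right flank of the distribution, and the other 6 lie beyond 1.3.

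Levels were compared between genes as reads per kb of exon per M reads of the library (RPKM units). In WT VT retina *S100a9* had the highest level, 0.542 ± 0.117 (SD, n = 3), and did not overlap with the next, *Arg1*, at 0.181 ± 0.0547. *S100a8* (0.1302 ± 0.0518) and *Il1b* (0.128 ± 0.0236) followed, and their values overlapped with each other. *Slfn4* (0.0474 ± 0.0258), *Chil3* (0.0419 ± 0.0248) and *Acod1* (0.0342 ± 0.00477) formed a lower group whose values overlapped but stayed below those of *Il1b*. *Ptafr* (0.0215 ± 0.0170) and *Nos2* (0.0117 ± 0.00322) were lowest. In *Slc6a4*-/- VT retina *S100a9* stayed first at 1.20 ± 0.725, and *Slfn4* came next at 0.566 ± 0.479, before *S100a8* at 0.533 ± 0.561, *Arg1* at 0.312 ± 0.0895 and *Il1b* at 0.288 ± 0.220 (SD, n = 3 each). Each of these 5 overlapped with its neighbour in this order. *Nos2* was again lowest, at 0.0313 ± 0.00847.

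**Figure D4:**
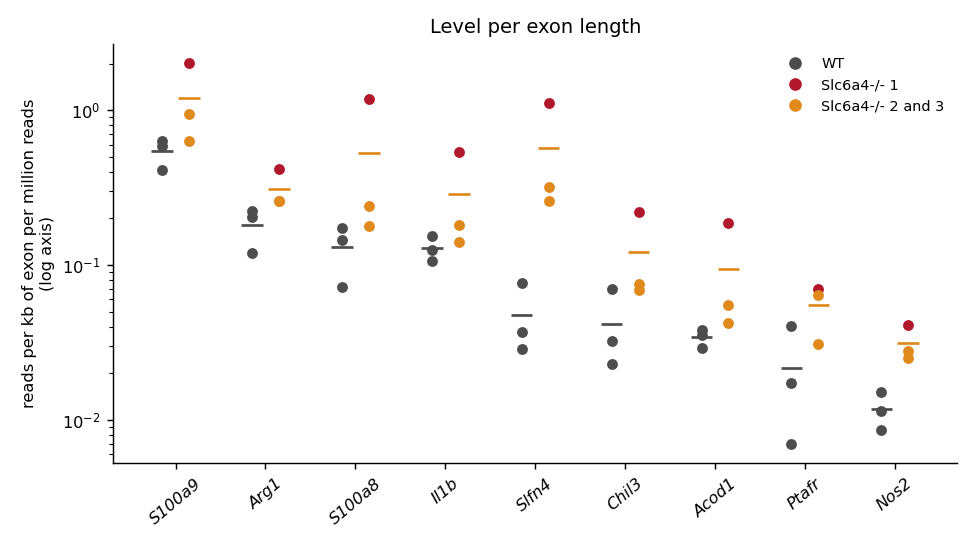
Level per exon length of each gene (reads per kb of exon per M reads, log axis) in WT samples (grey), *Slc6a4*-/- sample 1 (red) and *Slc6a4*-/- samples 2 and 3 (orange), with bars at the group means. Genes are ordered by their WT mean, from *S100a9* at 0.542 to *Nos2* at 0.0117.

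The pattern of the 9 genes was also compared with the rest of the table, as the Pearson correlation over the 6 samples between log2(scaled count + 1) of a gene and the mean of that value over the 9. These correlations describe samples that share their scaling and include the difference between the genotypes. The most like was *Ccr1*, a chemokine receptor of monocytes and neutrophils (r = 0.98), with 20.96, 14.6 and 14.7 scaled counts for WT against 52.1, 25.1 and 27.6 for *Slc6a4*-/- samples 1 to 3. It was followed by *Gucy2c*, a receptor guanylate cyclase (0.94), the interferon-inducible gene *Ifi204* (0.93), *Il1rn* (0.93) and the inhibitory Fc receptor *Fcgr2b* (0.92). With the mean of each genotype taken out, r was 0.93 for *Ccr1*, 0.80 for *Gucy2c*, 0.77 for *Ifi204*, 0.76 for *Il1rn* and 0.91 for *Fcgr2b*. All 5 were highest in *Slc6a4*-/- sample 1, but they were picked by likeness to genes that are highest there, so nothing is read from this. Among the 9, each gene was correlated with the mean of the other 8 at r = 0.90 to 0.94, except *Arg1* at 0.78 and *Ptafr* at 0.64.

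Of 18 genes of the interleukin-1 and inflammasome pathway, the table held 4, and 3 of these were higher in *Slc6a4*-/-. *Il1rn*, the antagonist at the interleukin-1 receptor, was at 6.62, 4.17 and 8.43 scaled counts in the WT samples, against 27.4, 14.9 and 18.4 in *Slc6a4*-/- samples 1 to 3, without overlap and with a log2 ratio of 1.66, or 1.38 without *Slc6a4*-/- sample 1. *Il33*, an alarmin of the same family, had a log2 ratio of 0.41 with overlapping groups. *Il1a*, the second interleukin-1 agonist, went the other way, with 8.83, 10.4 and 17.9 scaled counts for WT against 7.07, 5.57 and 1.02 for *Slc6a4*-/- samples 1 to 3, without overlap and with a log2 ratio of -1.44. Of the reads on *Il1b* and its antagonist, *Il1rn* took 24.0% in WT (exact Clopper-Pearson 95% interval 14.9% to 35.3%) and 24.2% in *Slc6a4*-/- sample 1 (17.1% to 32.6%), and 39.5% in *Slc6a4*-/- samples 2 and 3 together (29.2% to 50.7%). These intervals overlap.

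Of 11 genes of arginine and nitric oxide metabolism the table held *Nos2*, *Arg1* and *Ass1*, which encodes argininosuccinate synthase. *Ass1* was at 759.0 ± 19.2 scaled counts for WT and 957.5 ± 139.8 for *Slc6a4*-/- pools (SD, n = 3 each), a log2 ratio of 0.34, and *Slc6a4*-/- sample 1 was the lowest of its group at 797.0. Of 26 interferon response genes the table held *Slfn4* and 10 others, and all 11 were higher in *Slc6a4*-/-, 10 without overlap, where 34.8% of the table, itself selected on this contrast, lay above WT without overlap. The median log2 ratio of the 10 others was 0.80, and 0.83 without *Slc6a4*-/- sample 1. Among them *Oas2* (2.58), *Ifi27l2a* (1.76) and *Oas1b* (1.15) had the largest log2 ratios after *Slfn4* (3.58). *Oas2* was the only one of the 10 that was highest in *Slc6a4*-/- sample 1, with 19.4 scaled counts against 7.43 and 11.3 in samples 2 and 3.

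Of 21 genes of the NF-kB and STAT3 response and the acute phase the table held 6, and 3 were higher and 3 lower in *Slc6a4*-/-. The NF-kB cofactor *Bcl3* (log2 ratio -1.32), *Cebpd* (-0.53), a transcription factor of the acute phase, and *Socs3* (-0.51), an inhibitor of cytokine signalling, were lower without overlap. *Serpina3n* (0.89), *Lcn2* (0.87) and *A2m* (0.65), which encode secreted proteins of the acute phase, were higher, and their groups overlapped. Of 12 genes of reactive astrocytes and Müller glia the table held 6, which were *Lcn2*, *Serpina3n*, *Socs3* and *Cebpd* from the list above, *Il33*, and the glial filament gene *Gfap*, lower in *Slc6a4*-/- (-0.40) without overlap.

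Markers of myeloid cell types moved with the 9 genes in part. Of 20 neutrophil genes the table held only 3, *S100a8*, *S100a9* and *Lcn2*, the last of which astrocytes and Müller glia also express. The others, such as *Ly6g*, *Mpo* and *Elane*, were not in the table. It holds only genes selected on a minimum of reads and a p-value, so the levels of the others are not known here. *Lcn2* was at 568.1, 217.1 and 257.0 scaled counts in the WT pools and at 817.3, 482.9 and 609.0 in *Slc6a4*-/- pools 1 to 3. Of 20 macrophage and monocyte genes it held 7, all higher in *Slc6a4*-/- and 5 without overlap (34.8% of the table), with a median log2 ratio of 0.92, or 0.73 without *Slc6a4*-/- sample 1. The largest were *Ccr2* (2.12), the receptor of inflammatory monocytes, at 0 to 4.41 scaled counts in WT and 4.64 to 10.2 in *Slc6a4*-/-, *Ccr1* (1.06), *Aif1* (1.05) and the NADPH oxidase subunit *Cybb* (0.92). The summed level of the 7 genes was 206.4 to 389.4 scaled counts in WT samples and 587.6, 497.7 and 418.6 in *Slc6a4*-/- samples 1 to 3. *Aif1*, a marker of microglia and macrophages, was lowest of its group in *Slc6a4*-/- sample 1, at 18.6 against 29.7 and 45.0 scaled counts. None of 12 microglia genes was in the table. The part of cell number in the levels of the 9 genes was not tested.

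Markers of other cells were set beside *Slc6a4*-/- sample 1 as well. The 2 haemoglobin genes in the table, *Hbb-bs* and *Hbb-bt*, of 5 red blood cell genes, had a median log2 ratio of 0.50 and summed to 562.0, 816.2 and 1120 scaled counts in *Slc6a4*-/- samples 1 to 3, so that sample 1 was lowest, and to 473.8 to 681.8 in WT samples. The pigment cell genes (5 of 8 in the table, all higher in *Slc6a4*-/-, median log2 ratio 0.99) and the fibroblast and matrix genes (7 of 12, 6 higher, with *Col1a1* lower, median 0.90) were high in WT sample 1 and low in WT sample 3, at 1.38 and 0.57 times the WT mean for pigment and 1.72 and 0.38 times for matrix genes. In *Slc6a4*-/- samples 1 to 3 the matrix genes were at 1.97, 1.38 and 1.61 times the WT mean, highest in sample 1 as the 9 genes were, and the pigment genes were at 2.09, 2.32 and 1.23 times. The 9 genes summed to 0.99 and 1.13 times their WT mean in WT samples 1 and 3. The NF-kB, STAT3 and acute phase genes were in their sum at 1.77, 1.46 and 1.29 times the WT mean in *Slc6a4*-/- samples 1 to 3, after 1.52 times in WT sample 1. *A2m* made up most of this sum. In *Slc6a4*-/- sample 1, *Bcl3* (7.07 scaled counts), *Cebpd* (327.8) and *Socs3* (128.1) lay below their WT means of 21.2, 500.0 and 176.3. The 9 gland secretion genes on the list were all in the table and all lower in *Slc6a4*-/-, with a median log2 ratio of -1.66 and sums of 0.42, 0.27 and 0.25 times the WT mean in *Slc6a4*-/- samples 1 to 3. The groups overlapped for 6 of them. That list was chosen with earlier results of these data known, so nothing is read from its full presence or its shared direction. The retinal markers in the table were lowest in *Slc6a4*-/- sample 1 in their sums, at 0.58 times the WT mean for 3 of 4 cone markers, 0.76 for 2 of 5 retinal ganglion cell markers, 0.79 for 2 of 3 bipolar cell markers and 0.73 for the amacrine cell marker *Slc32a1*. In *Slc6a4*-/- samples 2 and 3 these sums were at 0.66 and 0.72 for cone, 0.97 and 0.93 for ganglion cell, 0.89 and 0.93 for bipolar and 0.82 and 1.02 for amacrine markers. The lowest WT samples were at 0.70, 0.90, 0.88 and 0.93 in the same order. Single markers did not all follow these sums. *Nefl* made up most of the ganglion cell sum, while *Elavl2*, an RNA-binding protein gene of these neurons, was highest of its group in sample 1, at 648.5 scaled counts against 603.6 and 582.4. The cone opsin gene *Opn1sw*, with the highest mean of the cone markers in both genotypes, had a log2 ratio of -1.24 and was lowest in sample 2. *Opn1mw* had a log2 ratio of 0.39, with *Slc6a4*-/- sample 1 above WT sample 2. Whether the makeup of the dissected tissue had a part in the levels of the 9 genes was not tested.

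**Figure D5:**
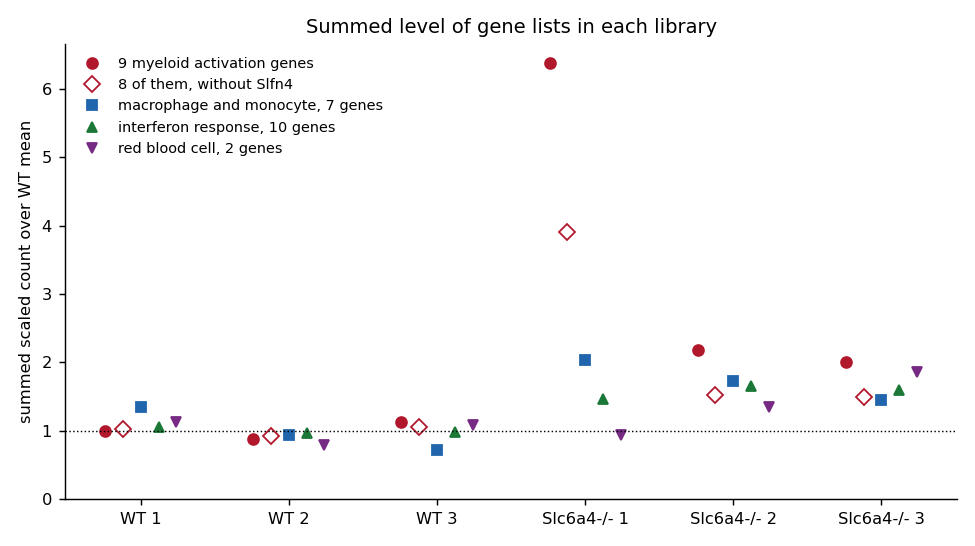
Summed scaled count of gene lists in each sample, divided by the WT mean of that list (dotted line at 1), for the 9 genes, for 8 of them without *Slfn4*, and for the table's macrophage and monocyte, interferon response (without *Slfn4*) and red blood cell genes. In *Slc6a4*-/- sample 1 the 9 genes are at 6.38 and the 8 genes at 3.91, while the macrophage and monocyte genes are at 2.04, the interferon genes at 1.46 and the red blood cell genes at 0.93.

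Relative to their WT means, the 9 genes together were at 6.38, 2.18 and 2.00 in *Slc6a4*-/- samples 1 to 3. Without *Slfn4*, which alone held a large part of the reads, the other 8 were at 3.91, 1.53 and 1.496. The macrophage and monocyte genes were at 2.04, 1.72 and 1.45 and the 10 other interferon genes at 1.46, 1.65 and 1.60. Samples 2 and 3 of *Slc6a4*-/- had similar sums for the 9 genes, both above the 0.88 to 1.13 of the WT samples. The genes come from a table selected on this contrast, so nothing is read from sums above WT. In these 2 samples only *Slfn4* had counting intervals above those of all WT samples.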

How the data were processed

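RNA-seq of 6 samples, 3 of WT and 3 of *Slc6a4*-/- VT retina, was analysed. The authors made stranded total RNA libraries with reduced ribosomal RNA, and used the CLC Genomics Workbench to align the paired reads to GRCm38 and to count them by gene. Their deposited table holds the raw counts of each sample, unnormalized, with a comma as digit mark that was removed here, for 701 genes selected on a minimum of reads and on a p-value for WT against *Slc6a4*-/-. The authors also deposited the larger of both genotypes' mean RPKM for each gene, and fold changes and p-values of their own comparison, which were not used. The 25 blank lines were skipped, and 0 per-sample columns went unused.

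The sum over selected genes is not the depth. Read totals per library were estimated by a robust linear fit of the authors' RPKM times the GENCODE M21 exon length on the counts, for genes with an RPKM over 2. It kept 63 of 125 genes for WT and 62 of 165 for *Slc6a4*-/-, within a tolerance of 0.4%, and on simulated data with 701 genes the largest error of a total was 0.323%. The totals were 75.3, 79.6 and 78.9 M reads for WT samples 1 to 3 and 94.0, 89.5 and 81.2 M for *Slc6a4*-/- samples 1 to 3. All 701 identifiers had a position in the annotation.

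Scaled counts are counts at the mean total. A ratio is the ratio of group means of scaled counts, with a group of at most 3 reads set at 3 reads. The 95% intervals are exact Poisson intervals of counts and Clopper-Pearson intervals of shares. They cover counting error only, since reads without molecular identifiers are not independent molecules. Nothing says which pools came from 1 day or batch, so the SD is the spread between these pools.

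The members and gene lists were chosen with earlier results of these data known, so no test between genotypes was made. All 9 genes, *Slc6a4*, up to the 4 largest ratios of each gene list with genes against its direction, and the 5 genes most like the 9 in pattern were named, and others only where said. The work was done in Python 3.11.15 with numpy 2.4.6, pandas 2.3.3, scipy 1.17.1 and matplotlib 3.10.9. Promoters were those of RefSeq. The alternatives were other scalings, other scales of the ratio, a minimum of 10 reads and leaving out each sample.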

Additional observations from a re-analysis of the deposited data

How the results depend on the processing

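No paired analysis was possible because the results come from no test, and nothing in the sources used here says that samples of the same number share a day or batch. All 9 genes had a higher mean in *Slc6a4*-/- in each alternative. The count of the 9 genes whose groups did not overlap was 6 (58.3% of the table), and it was 3 with TMM factors (62.8%), 3 with the median of ratios (57.5%), 8 without scaling (53.6%) and 6 to 9 with each sample left out (62.1% to 82.6%). The table's genes at least 2-fold higher in *Slc6a4*-/- numbered 91, 138 without scaling and 60 to 156 with each sample left out (156 without WT sample 1, 60 without WT sample 3). With each sample left out the log2 ratio ranged from 0.69 to 2.45 for *S100a8*, 0.33 to 1.49 for *Il1b*, 0.51 to 1.82 for *Acod1* and 2.61 to 4.11 for *Slfn4*, each lowest without *Slc6a4*-/- sample 1. As a ratio of group medians, an alternative chosen after seeing the data, it was 0.73 for *S100a8* and 0.64 for *Acod1*, since the median leaves out the weight of that sample. Of 138 values, 127 moved by less than the spread between samples or, for counts, by at most 1.5 times. That spread includes *Slc6a4*-/- sample 1, so large shifts can fall within it. Without that sample the log2 ratio went from 1.15 to 0.54 for *S100a9* and from 1.54 to 0.78 for *Chil3*. For *Ptafr* it went from 1.36 to 2.18 without WT sample 1. The median of all genes shifted by -0.16 on the log2 scale with the median of ratios and by 0.18 without scaling. The depth limits the 5 genes with a WT mean below 10 reads, *S100a8*, *Chil3*, *Acod1*, *Nos2* and *Ptafr*, and 3 pools a genotype limit all 9.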
